A study of Homo sapiens with 13 samples.

Results

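The genes described here are 10 components of FGF and Nodal signalling: FGF2, FGFR1, DUSP6, SPRY2, SPRY4, ETV4, ETV5, NODAL, LEFTY1 and LEFTY2. They were chosen by pathway, and every peak with a base within 10 kb of their hg19 transcription start sites was taken. Of the 136141 peaks in 7 lists, 68 lay in these windows. All were made from H1 cells (WA01), an established line of human embryonic stem cells, either wild type (WT) or homozygous for a Cas9 deletion of ZNF263, a C2H2 zinc finger transcription factor. The knockout (KO) cells are a single line labelled 1-10. Chromatin immunoprecipitation with sequencing (ChIP-seq) mapped H3K4me3, H3K27ac and H3K27me3 in WT and in KO cells, with 1 library for each mark and genotype. ZNF263 itself was mapped through a FLAG tag, in KO cells with ectopic expression of ZNF263-FLAG, and a FLAG peak may therefore differ from binding by the endogenous protein. For 2 WT libraries of endogenous ZNF263 the labels point to that same list, with no word on whether they contributed to it. No test between WT and KO is possible with 1 library per arm, and no difference below has a replicate check. Depth is unknown, and signal below the threshold of the peak caller leaves no entry in a list. Fewer cells with a mark and less of the mark per cell cannot be told apart.

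FGF2 is a secreted ligand that sustains human embryonic stem cells in culture. It signals through receptors such as FGFR1 to the RAS and ERK cascade. ERK signalling induces the ETS transcription factors ETV4 and ETV5 and the feedback inhibitors DUSP6, a phosphatase of ERK, and SPRY2 and SPRY4, Sprouty proteins that dampen receptor signalling. NODAL is a ligand of the TGF-beta family that activates SMAD2 and SMAD3 and supports the primed pluripotent state and mesendoderm formation. LEFTY1 and LEFTY2 are secreted inhibitors of NODAL and are themselves targets of the pathway. H3K4me3 marks promoters, H3K27ac active promoters and enhancers, and H3K27me3 regions held by Polycomb, while promoters with both H3K4me3 and H3K27me3 are termed bivalent.

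FLAG peaks covered most of these start sites, so promoter sequence is shown for SPRY2 and DUSP6, feedback inhibitors with the highest FLAG scores of the group, and for NODAL, whose promoter was bivalent. The known ZNF263 motif is a G-rich repeat built on GGAGGA. Matches to GGAGGA or its reverse complement TCCTCC, overlaps included, are in capitals in the 250 bases before the RefSeq start (GRCh38.p14, gene strand, 5′ to 3′). These are at chr13:80341127-80341376 for SPRY2, chr12:89352502-89352751 for DUSP6 and chr10:70441682-70441931 for NODAL, all on the minus strand. SPRY2 has 3 starts in that table and the first listed is shown.
SPRY2: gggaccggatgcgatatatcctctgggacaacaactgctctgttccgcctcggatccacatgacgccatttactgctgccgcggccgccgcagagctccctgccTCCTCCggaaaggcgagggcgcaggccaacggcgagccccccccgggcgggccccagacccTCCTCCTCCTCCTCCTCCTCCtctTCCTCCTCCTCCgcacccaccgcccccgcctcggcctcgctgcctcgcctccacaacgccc
DUSP6: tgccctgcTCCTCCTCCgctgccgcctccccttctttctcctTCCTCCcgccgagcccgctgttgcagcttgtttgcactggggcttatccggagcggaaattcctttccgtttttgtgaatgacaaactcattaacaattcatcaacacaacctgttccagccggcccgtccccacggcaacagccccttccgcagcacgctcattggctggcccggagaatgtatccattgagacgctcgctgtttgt
NODAL: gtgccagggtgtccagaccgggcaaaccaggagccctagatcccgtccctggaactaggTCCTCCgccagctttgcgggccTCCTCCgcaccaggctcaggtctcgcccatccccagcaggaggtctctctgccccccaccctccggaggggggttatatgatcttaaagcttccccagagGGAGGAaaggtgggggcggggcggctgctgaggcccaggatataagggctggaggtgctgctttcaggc
SPRY2 held 10 overlapping matches, which together cover 39 bases, and DUSP6 and NODAL held 3 each. The table had promoters for 5 of the 10 genes. FGF2 held 1 match and SPRY4 none, so 4 of 5 promoters had at least 1, against 31.8% of all 35116 promoters in the table. The FLAG scores of these 5 genes were 420 for SPRY2, 394 for DUSP6, 291 for FGF2, 148 for NODAL and 70.4 for SPRY4. They did not follow the number of matches throughout, since NODAL, with 3 matches, scored below FGF2, with 1. The FGF2 and SPRY2 promoters were rich in G and C (75.2% and 70.4%), where the median of all promoters was 58.0%. A match is a run of letters in the reference and not a measured site. FGFR1, ETV4, ETV5, LEFTY1 and LEFTY2 were not in the table.

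**Figure D1:**
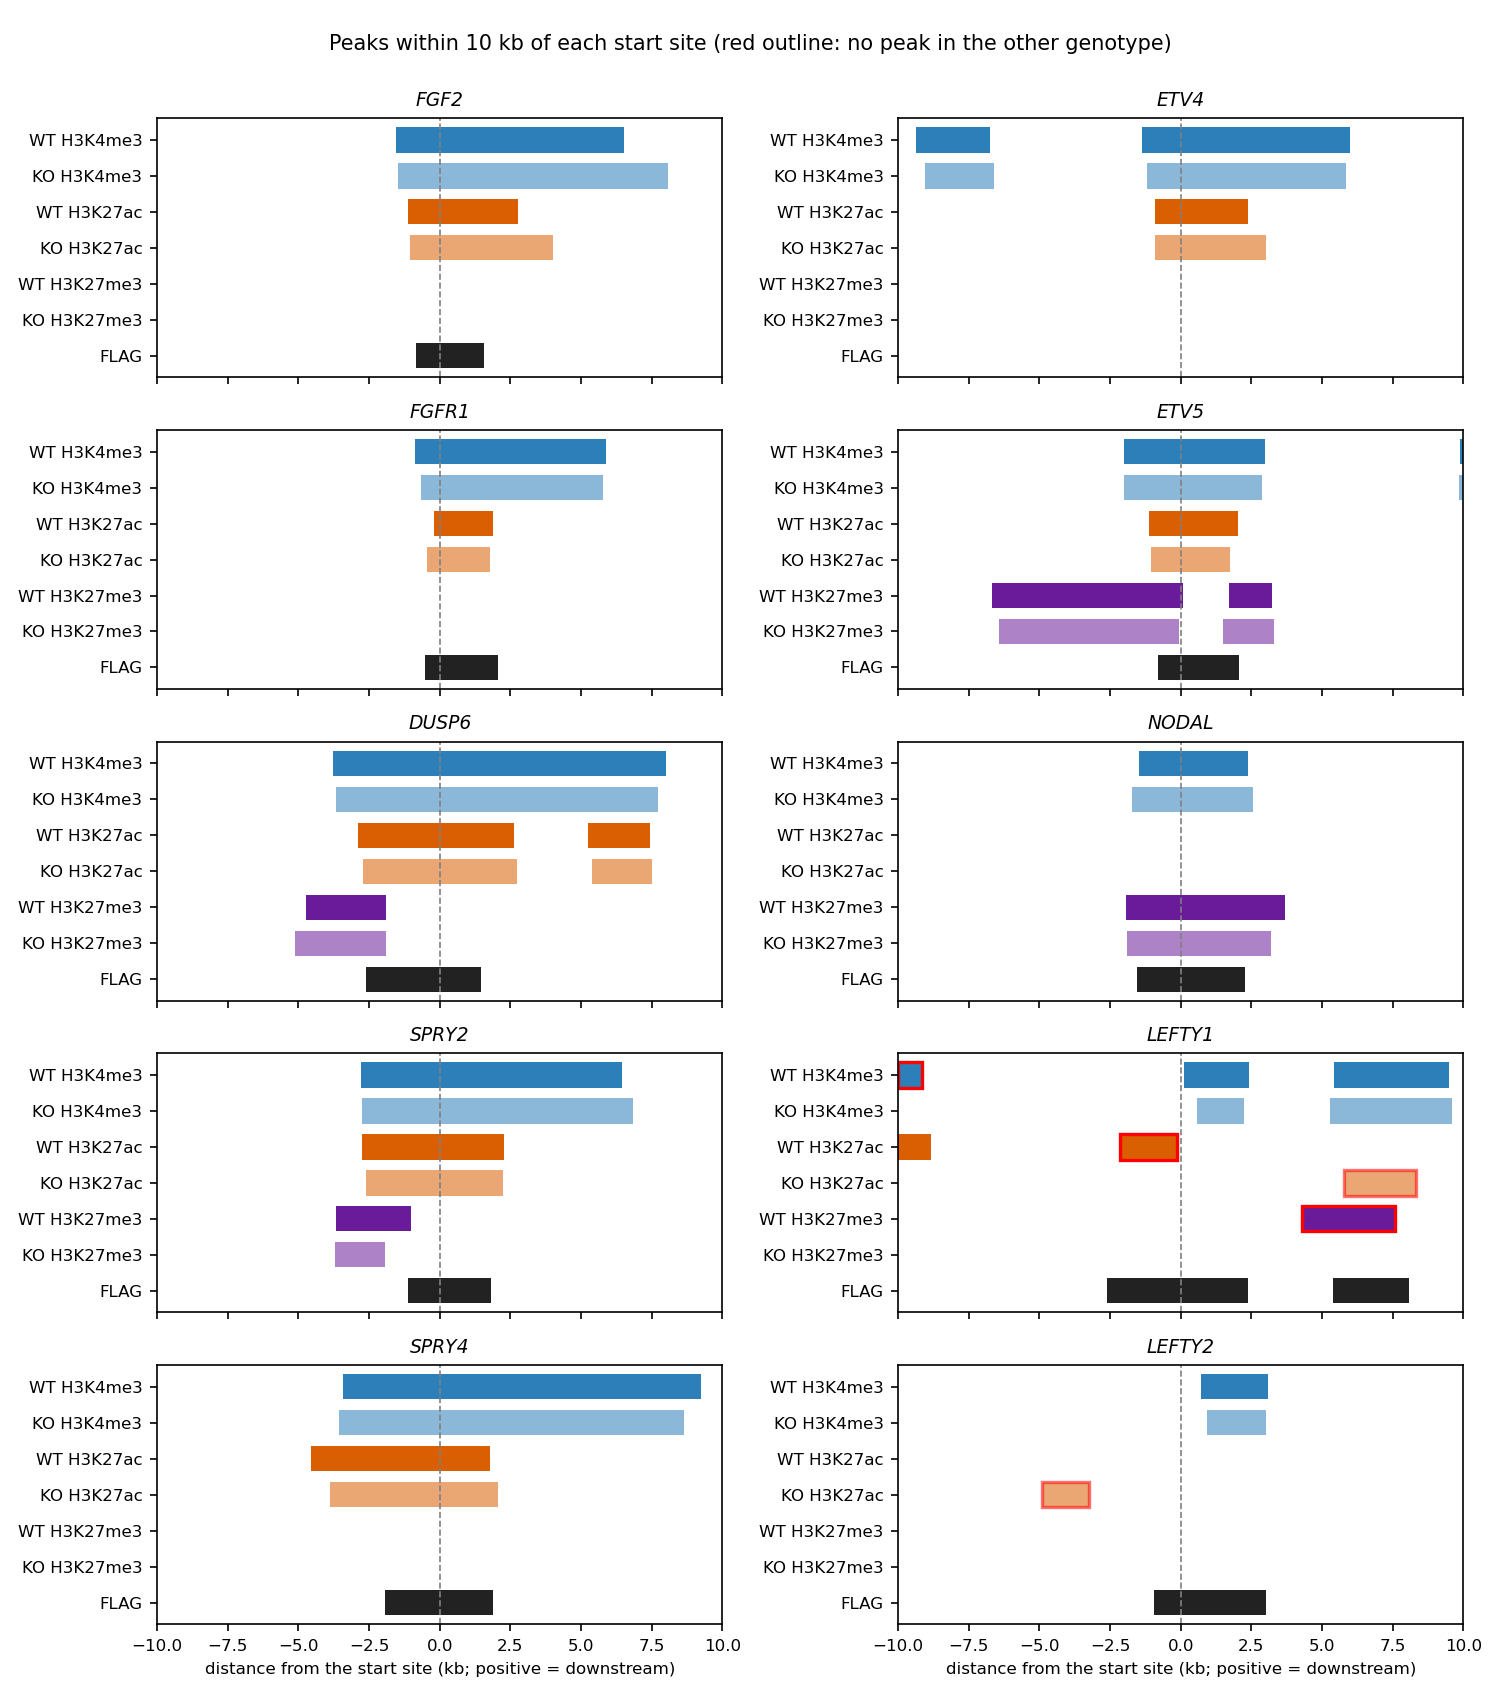
Peaks of the 7 lists within 10 kb of each start site, with distance in kb along the gene on the x axis (positive is downstream), and 1 row per list. Dark bars are WT, light bars KO, black bars FLAG peaks, and bars run off at the window's edge. Red outlines mark peaks with no counterpart in the other genotype, which lie at LEFTY1 and LEFTY2.

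H3K4me3 was present at all 10 genes in both genotypes, with 14 peaks in WT and 13 in KO. Windows of the same size around all WT H3K4me3 peaks held a KO H3K4me3 peak in 91.4% of cases. The mark covered the start site itself at 8 genes in WT and the same number in KO, and the exceptions were LEFTY1 and LEFTY2, where it began inside the gene. Of the WT member peaks, 9 reached the score ceiling of 3100, which 42.9% of the whole list also did. H3K27ac lay near 8 genes in WT and 9 in KO, where such windows gave 49.8% and 46.6%. In windows of 5, 20 and 50 kb the H3K27ac counts of WT and KO were equal, at 8, 9 and 10 genes. H3K27me3 lay near 5 genes in WT and 4 in KO, against 39.1% and 34.8% of windows. A FLAG peak lay near 9 genes, all but ETV4, against 50.7% of windows. When only the upper 50% of each list by score was kept, the order of the genotypes turned, to 6 genes in WT and 5 in KO for H3K27ac and to 2 and 3 for H3K27me3. Around WT H3K4me3 peaks at the ceiling, a background chosen after seeing the data, the shares were 64.0% and 57.9% for H3K27ac in WT and KO, 41.1% and 35.5% for H3K27me3, and 66.6% for FLAG. The H3K27me3 counts of these genes were thus near the background. The FLAG and H3K27ac counts were above it, in a group of only 10 genes.

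The FLAG peaks of the group sat on start sites and on H3K4me3. At each of the 9 genes with a FLAG peak, a FLAG peak covered the start site. All 10 FLAG peaks overlapped H3K4me3 peaks of WT and of KO, where 11484 of all 22966 FLAG peaks (50%) overlapped WT H3K4me3. Read from the other side, 10 of the 14 WT H3K4me3 peaks of these genes overlapped a FLAG peak, against 39.3% of the whole list. Of those 14 peaks, 9 were at the score ceiling, reached by 42.9% of the whole list. Of the 10 FLAG peaks, 7 overlapped H3K27ac in WT and 7 in KO, and 5 overlapped H3K27me3 in WT and 3 in KO. Shares of all FLAG peaks on these marks were not computed, so these counts cannot be called high or low. FLAG scores ran from 67.7 at the LEFTY1 start site to 420 at SPRY2, and the median of the whole list was 86.7. SPRY2 and DUSP6 (394) exceeded 95.9% and 95.2% of FLAG peaks, whereas SPRY4 (70.4) exceeded only 35.7%.

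H3K4me3 domains of the FGF group were wide. Among the 10 genes, 6 had a WT H3K4me3 peak in the widest 5% of the list, a class that holds 5.0% of peaks by construction: FGF2, FGFR1, DUSP6, SPRY2, SPRY4 and ETV4. The same number did in KO. The widest was at SPRY4, 12667 bp in WT and 12214 bp in KO, and the median of all WT H3K4me3 peaks was 2499 bp. ETV5 (4973 bp), NODAL (3861 bp) and LEFTY2 (2345 bp) had narrower peaks in WT. Of the genes with wide H3K4me3, 4 also had an H3K27ac peak in the highest 5.0% of the list by score in WT, namely FGF2, DUSP6, SPRY2 and SPRY4, and the same 4 did in KO. These classes were chosen after the values were seen. The 5.0% counts all peaks of a list, weak ones included, while the counts here are of genes. Shares for peaks at start sites were not computed.

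**Figure D2:**
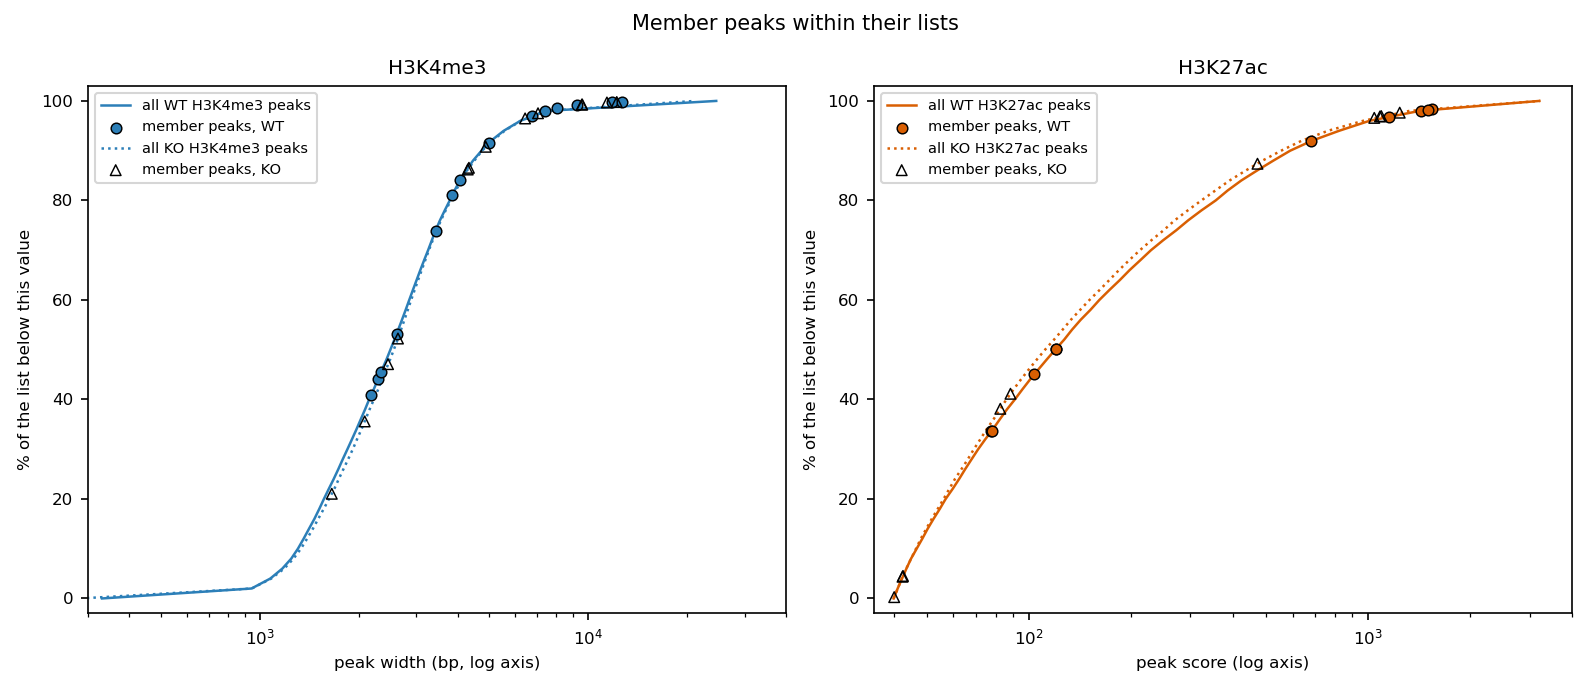
Left, width of H3K4me3 peaks in bp (log axis), and right, score of H3K27ac peaks (log axis), each against the share of the list below that value. Lines are the whole lists in steps of 2 percentage points, filled circles the WT and open triangles the KO peaks near the 10 genes. The wide H3K4me3 peaks of 6 genes sit above 95%, and 3 KO H3K27ac peaks sit within 5% of the bottom of their list.

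FGF2, the ligand, carried H3K4me3 and H3K27ac without H3K27me3 in both genotypes, with a FLAG peak over its start site (chr4:123747863, plus strand). The H3K4me3 peak was 8039 bp wide in WT, at chr4:123746328-123754366, and 9562 bp wide in KO, at chr4:123746376-123755937. Both began about the same distance upstream, 1.54 kb in WT and 1.49 kb in KO, so the extra length lay inside the gene, where the peak ended 6.50 kb downstream in WT and 8.07 kb in KO. The H3K27ac peak also reached farther in KO, to 4.02 kb downstream against 2.78 kb, and was 5070 bp wide against 3910 bp. The KO to WT width ratio was 1.19 for H3K4me3 and 1.30 for H3K27ac. Over all pairs of overlapping peaks the central 90% of ratios ran from 0.799 to 1.21 for H3K4me3 and from 0.744 to 1.44 for H3K27ac, so both FGF2 ratios lay within the usual spread between the lists. The FLAG peak, at chr4:123747033-123749414, had a score of 291. No H3K27me3 peak lay within 723 kb of the start site in either genotype.

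FGFR1, the receptor, had the same combination of marks as FGF2, with a lower-scoring H3K27ac peak. Its start site is at chr8:38326352. The H3K4me3 peak was 6756 bp wide in WT and 6425 bp in KO, and the FLAG peak had a score of 222. The H3K27ac peak over the start site had a score of 77.7 in WT, above 33.6% of that list, and 42.6 in KO, above 4.52% of that list and close to the minimum of 40. A stronger H3K27ac peak lay inside the gene, outside the window, 24.4 kb downstream in WT (7361 bp, score 382) and 23.3 kb downstream in KO (9611 bp, score 1133). A further H3K27ac peak, 15.9 kb downstream, and the H3K4me3 peak on it were present in WT and had no KO counterpart. The receptor gene thus kept its promoter peaks in both lists, and its WT-only peaks lay beyond 10 kb.

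The feedback inhibitors DUSP6, SPRY2 and SPRY4 had H3K4me3 domains of 9255 bp or more and H3K27ac peaks over their start sites in both genotypes. DUSP6 (chr12:89746296) had an H3K4me3 peak of 11789 bp in WT and 11400 bp in KO. Its promoter H3K27ac peak, at chr12:89743655-89749188 in WT, was 5534 bp wide in WT and 5459 bp in KO. A smaller H3K27ac peak 5.26 kb downstream had a score of 121 in WT, above 50.2% of that list, and 42.5 in KO, above 4.37% of that list. Upstream of the start site DUSP6 also carried H3K27me3, 1.89 to 4.73 kb away in WT and 1.90 to 5.13 kb away in KO. The FLAG peak of DUSP6 extended from 1.46 kb downstream to 2.61 kb upstream and touched the H3K27me3 peak of both genotypes. DUSP6 thus carried H3K27ac across its start site and H3K27me3 at the upstream edge of the same H3K4me3 domain.

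SPRY2 (chr13:80915086) showed a similar arrangement, with a narrower H3K27me3 peak in KO. The H3K4me3 peak was 9255 bp wide in WT and 9589 bp in KO, and the H3K27ac peak 4993 bp and 4823 bp. H3K27me3 lay upstream, from 1.02 to 3.67 kb in WT (2651 bp, score 126) and from 1.94 to 3.69 kb in KO (1746 bp, score 42.8). Its KO to WT width ratio of 0.659 was below the 5th percentile of all H3K27me3 pairs, 0.726. The KO peak exceeded 2.80% of its list by score and the WT peak 34.1% of its own. Because the near edge lay farther from the start site in KO, the FLAG peak, which reached 1.11 kb upstream, overlapped H3K27me3 in WT and not in KO.

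SPRY4 (chr5:141704620) had no H3K27me3 peak in the window in either genotype, and the nearest was 215 kb away in WT and 410 kb away in KO. Its H3K27ac peak was the widest of the group, 6334 bp in WT and 5914 bp in KO, and reached 4.55 kb upstream in WT and 3.87 kb in KO. In both genotypes a strong H3K27ac peak also lay upstream, beyond the window, 29.4 kb away in WT (score 1206) and 30.2 kb away in KO (score 988), and it overlapped a FLAG peak. Widths at SPRY4 differed little between the lists, with KO to WT ratios of 0.964 for H3K4me3 and 0.934 for H3K27ac.

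Of the ETS factors, ETV4 was the only gene of the 10 with no FLAG peak near its start site (chr17:41623800), and the nearest was 34.6 kb away. It carried H3K4me3 of 7366 bp in WT and 7033 bp in KO, and H3K27ac of 3266 bp (score 682) and 3930 bp (score 473). A second, weaker H3K4me3 peak lay upstream in both, from 6.75 to 9.36 kb in WT and from 6.61 to 9.06 kb in KO. No H3K27me3 peak lay in the window. The combination at ETV4, H3K4me3 and H3K27ac in both genotypes with no other peak, was found in 18.2% of windows around WT H3K4me3 peaks.

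ETV5 (chr3:185826901) differed from ETV4 in carrying H3K27me3 and a FLAG peak. The FLAG peak, score 136, ran from 0.821 kb upstream to 2.05 kb downstream. An H3K27me3 peak of 6740 bp in WT (score 3100) and 6363 bp in KO (score 2975) lay upstream, and a smaller peak of 1493 bp in WT and 1819 bp in KO lay inside the gene. The larger peak ended 71 bp past the start site in WT and 67 bp before it in KO, so the start site was covered in WT and not in KO by a margin far smaller than the peak's width. The H3K27ac peak over the start site overlapped both H3K27me3 peaks in each genotype and was weak, with a score of 121 in WT and 40.2 in KO, where the minimum of the list was 40. It exceeded 50.2% of WT H3K27ac peaks and 0.267% of KO H3K27ac peaks. H3K4me3 over the start site was 4973 bp wide in WT and 4876 bp in KO.

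The weak H3K27ac peaks of FGFR1, ETV5 and the downstream region of DUSP6 shared this position. Of the 9 H3K27ac peaks near these genes with a single overlapping peak in the other genotype, 3 lay in the lowest 5% of the KO list by score, against 1.98% of all 12688 such pairs. None of the 9 lay in the lowest 5% of the WT list, where the share over all pairs was 2.11%. This count was chosen after the scores were seen, and scores of different libraries are not on a known common scale.

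**Figure D3:**
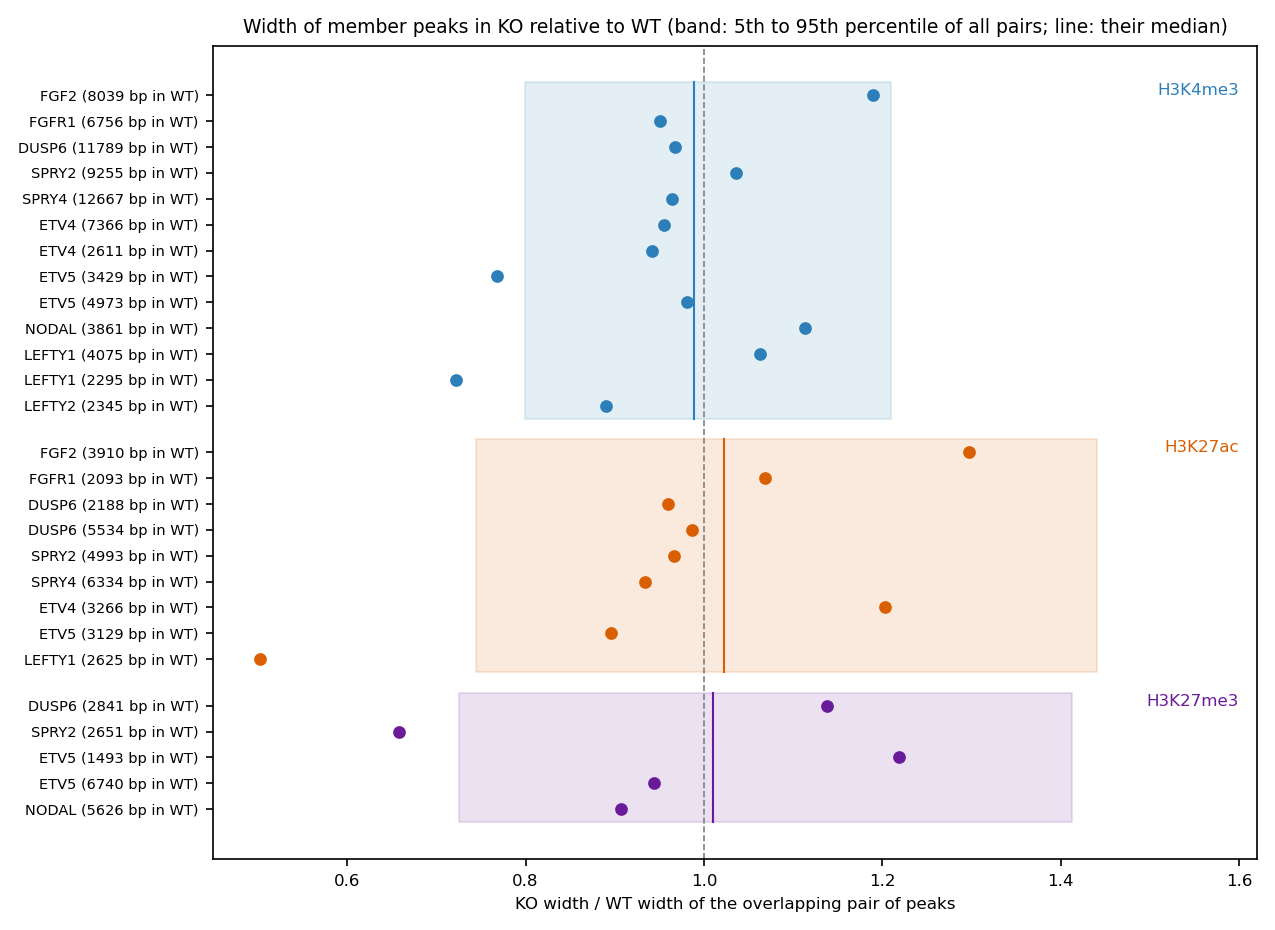
Ratio of KO to WT width (x axis) for each pair of peaks near the 10 genes that overlap 1 to 1 between genotypes, coloured by mark, with the WT width in the label. Bands span the 5th to the 95th percentile of all such pairs of the mark and coloured lines their medians. Of 27 pairs, the 4 outside the bands are narrower in KO and lie at ETV5, LEFTY1 (H3K4me3 and H3K27ac) and SPRY2.

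Across the group, pairs of overlapping peaks had nearly the same width in the 2 genotypes. The median KO to WT ratio was 0.964 over 13 H3K4me3 pairs, 0.966 over 9 H3K27ac pairs and 0.944 over 5 H3K27me3 pairs, where all pairs of each mark had medians of 0.989, 1.02 and 1.01. Narrower in KO were 9 of the 13 H3K4me3 pairs, against 54.7% of all pairs, 6 of the 9 H3K27ac pairs, against 43.4%, and 3 of the 5 H3K27me3 pairs, against 45.6%. Of the member pairs, 11 of 13, 8 of 9 and 4 of 5 lay between the 5th and 95th percentiles of their mark. The exceptions were the H3K27me3 peak of SPRY2, an H3K4me3 peak of ETV5 that starts 9.87 kb downstream (3429 bp in WT, 2635 bp in KO), and an H3K4me3 and an H3K27ac peak of LEFTY1 described below.

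NODAL was the only gene of the group with no H3K27ac peak near its start site (chr10:72201465) in either genotype. It was bivalent in both. H3K4me3 covered chr10:72199070-72202930 in WT (3861 bp) and chr10:72198901-72203198 in KO (4298 bp). H3K27me3 covered chr10:72197776-72203401 in WT (5626 bp, score 3100) and chr10:72198257-72203360 in KO (5104 bp, score 1679). The H3K27me3 peak enclosed the H3K4me3 peak in both genotypes, and also the FLAG peak of 3824 bp over the start site, which had a score of 148. A second H3K27me3 peak lay 11.4 kb upstream in WT (7895 bp) and 11.6 kb upstream in KO (8439 bp), with H3K4me3 peaks inside it. The nearest H3K27ac peak was 35.7 kb away in WT and 36.5 kb away in KO. This combination of marks was found in 18.1% of windows around WT H3K4me3 peaks.

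Bivalent overlap was found at 5 of the 10 genes in WT (DUSP6, SPRY2, ETV5, NODAL and LEFTY1) and at 4 in KO, all but LEFTY1. At LEFTY1 the overlapping peaks lay downstream, on the side of TMEM63A, and not at the start site. H3K27me3 itself covered the start site at only 2 genes in WT, ETV5 and NODAL, and at 1 in KO, NODAL. In windows of 5 kb the count was 4 in WT and 4 in KO. Counted by peak, 5 of the 14 WT H3K4me3 peaks and 4 of the 13 KO peaks overlapped H3K27me3, or 35.7% and 30.8%. The whole lists gave 33.4% and 30.7%, so the group was near the background. At DUSP6, SPRY2 and ETV5 the same H3K4me3 peak also overlapped H3K27ac, in both genotypes. All 7 lists had a peak near those 3 genes, a combination found in 4.16% of windows around WT H3K4me3 peaks. FGF2, FGFR1 and SPRY4, which lacked H3K27me3 alone, shared their combination with 14.3% of windows.

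**Figure D4:**
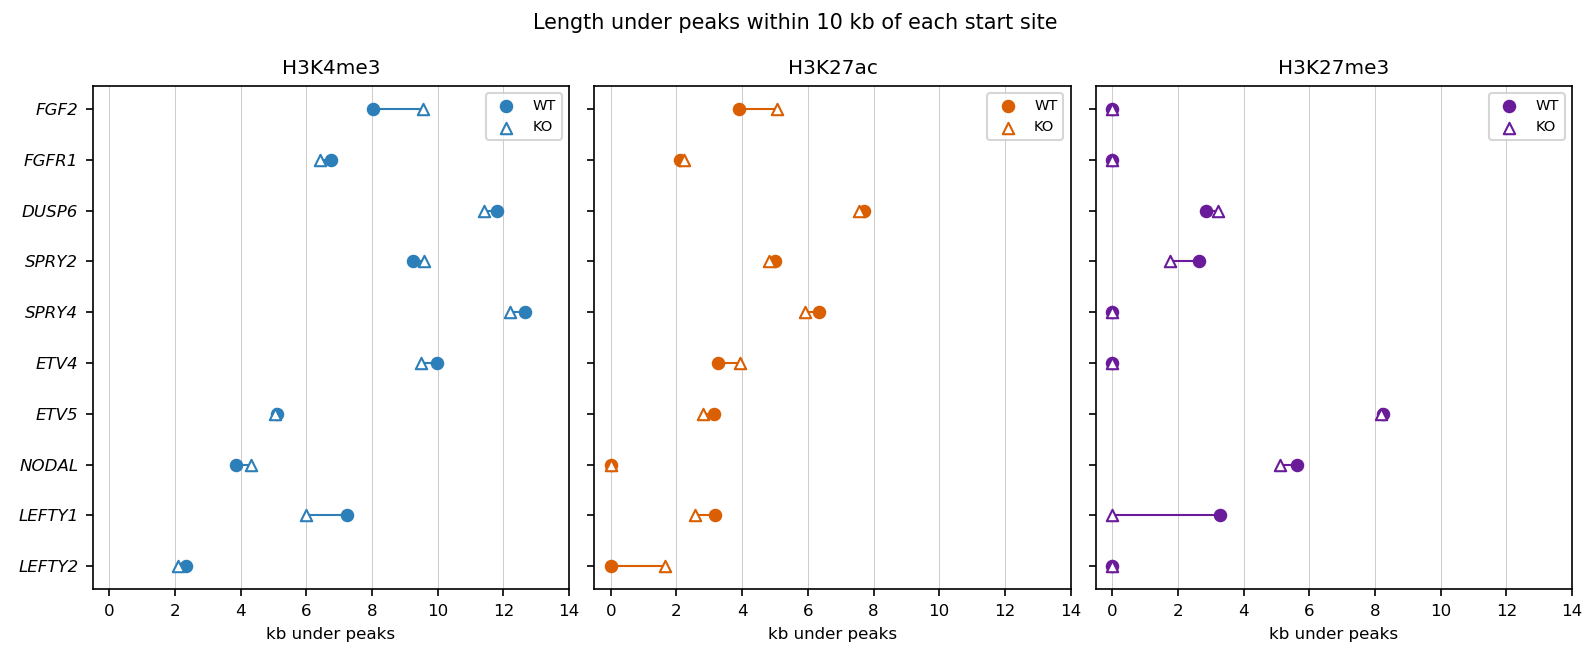
Length in kb under peaks of each mark within 10 kb of the start site, with 1 row per gene, filled circles for WT and open triangles for KO. WT and KO lie close together for most genes. LEFTY1 has 3.27 kb of H3K27me3 in WT and 0 in KO, and LEFTY2 has 0 kb of H3K27ac in WT and 1.65 kb in KO.

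LEFTY1 and LEFTY2, neighbours on chromosome 1 with start sites 52.2 kb apart, held every peak of the group that lacked a counterpart in the other genotype. Within 10 kb there were 5 such peaks. These were 1 of 14 WT H3K4me3 peaks (12.3% in the whole list), none of 13 KO H3K4me3 peaks (7.3%), 1 of 10 WT H3K27ac peaks (24.6%), 2 of 10 KO H3K27ac peaks (24.8%), 1 of 6 WT H3K27me3 peaks (21.6%) and none of 5 KO H3K27me3 peaks (11.0%). The number of exclusive peaks in the group was therefore not above the share in the whole lists. Their place was uneven with all peaks, since the other 8 genes had none. All 5 scored in the lower 50% of their lists, so none remains when only the upper 50% by score is kept. The exclusive peaks under that setting, 2 for WT H3K27ac and 1 for KO H3K27me3, lay at DUSP6 and ETV5. The concentration at LEFTY1 and LEFTY2 thus depends on low-scoring peaks.

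At LEFTY1 (chr1:226076845, minus strand) the H3K4me3 and H3K27ac peaks nearest to the start site were narrower or absent in the KO lists. The H3K27ac peak just upstream, chr1:226076988-226079010, from 0.143 to 2.17 kb, was present in WT with a score of 77.8 and absent in KO, where the H3K27ac peak nearest to the start site was 5.76 kb away. The H3K4me3 peak inside the gene was 2295 bp wide in WT (chr1:226074435-226076729, score 253) and 1657 bp in KO (chr1:226074596-226076252, score 56.0, near the list minimum of 50). Its width ratio of 0.722 was below the 5th percentile of H3K4me3 pairs. A FLAG peak of 4989 bp, chr1:226074478-226079466, score 67.7, spanned the start site and overlapped both of these WT peaks.

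Farther upstream of LEFTY1, from 8.85 to 11.5 kb, WT had an H3K27ac peak of 2625 bp (chr1:226085691-226088315, score 104) with an H3K4me3 peak of 2179 bp inside it (score 120). KO had an H3K27ac peak of 1320 bp there, chr1:226087189-226088508, with a score of 123, and no H3K4me3 peak. The KO peak began 10.3 kb from the start site, just outside the window, and its width ratio of 0.503 was the lowest of the group, with 0.433% of all H3K27ac pairs lower. This region had no FLAG peak.

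Downstream of LEFTY1, on the side of its neighbour TMEM63A, a region with H3K4me3 in both genotypes carried H3K27me3 in WT and H3K27ac in KO. H3K4me3 was at the score ceiling in both, 4075 bp wide in WT and 4333 bp in KO. The WT H3K27me3 peak, chr1:226069280-226072547, was 3268 bp wide with a score of 177, above 40.8% of its list, and no KO H3K27me3 peak lay within 192 kb of the LEFTY1 start site. The KO H3K27ac peak, chr1:226068534-226071085, was 2552 bp wide with a score of 82.5, above 38.1% of its list. A FLAG peak of 2669 bp (score 164) overlapped both. This region lies beyond the gene itself, and its peaks enter the counts for LEFTY1 by distance alone.

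LEFTY2 (chr1:226129083, minus strand) had H3K4me3 inside the gene, 2345 bp in WT (score 1676) and 2087 bp in KO (score 1427), and a FLAG peak over the start site (3967 bp, score 98.8). No H3K27ac peak lay in the window in WT, where the nearest was 16.4 kb away. In KO an H3K27ac peak of 1651 bp lay 3.25 to 4.90 kb upstream, at chr1:226132329-226133979, with a score of 88.4, above 41.1% of its list. No FLAG peak overlapped it. The combinations of lists at LEFTY1 and LEFTY2 were uncommon, found in 1.27% and 0.754% of windows around WT H3K4me3 peaks. In the LEFTY1 window the WT H3K27me3 peak and the KO H3K27ac peak both came from the region beside TMEM63A. At LEFTY2 the KO H3K27ac peak just described was the only H3K27ac peak of either genotype. Between the genes a WT H3K27me3 peak of 871 bp (score 63.0), 22.0 kb upstream of LEFTY1, overlapped a FLAG peak and had no KO counterpart. From LEFTY1 to LEFTY2 the KO list thus held no H3K27me3 peak, and the nearest to LEFTY2 was 140 kb away.

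**Figure D5:**
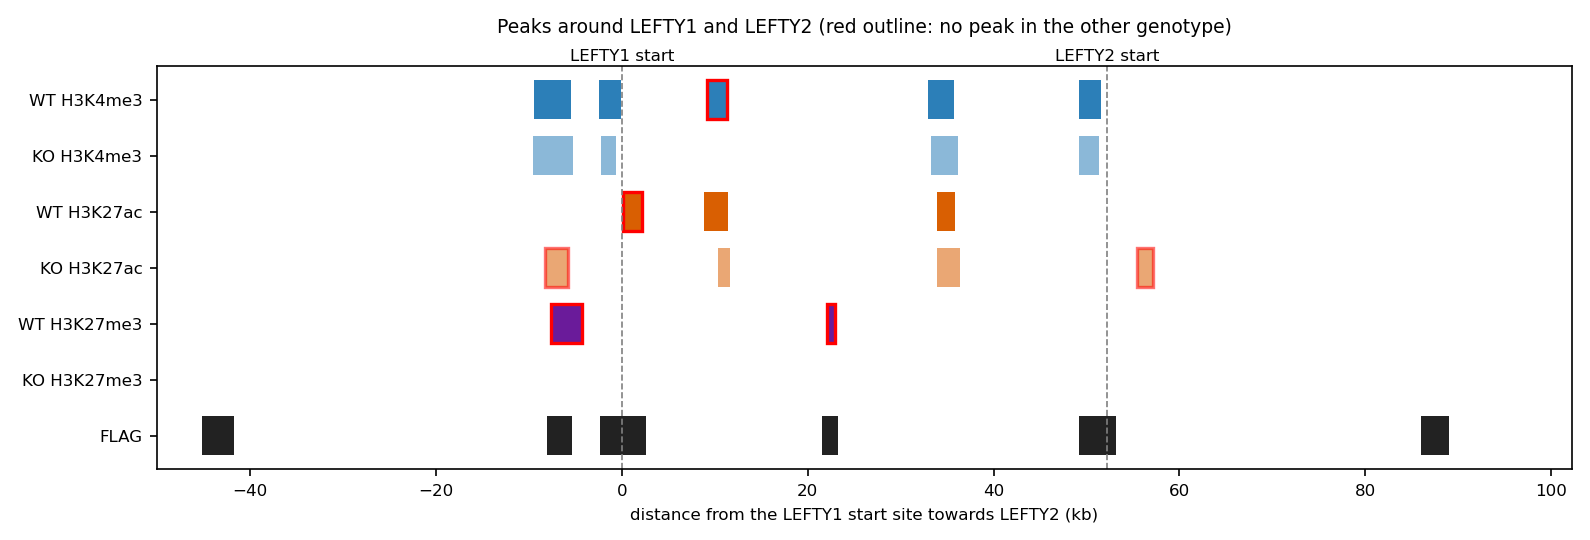
Peaks of the 7 lists around LEFTY1 and LEFTY2, with distance in kb from the LEFTY1 start site towards LEFTY2 on the x axis. Both genes run to the left, dashed lines mark their start sites, and red outlines mark peaks with no counterpart in the other genotype. The WT H3K27ac peak at the LEFTY1 start, the WT H3K4me3 peak to its right and both WT H3K27me3 peaks have none in KO, and KO H3K27ac peaks left of LEFTY1 and right of LEFTY2 have none in WT.

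Summed over the 10 windows, covered length was nearly equal for H3K4me3 (77.0 kb in WT, 76.1 kb in KO) and for H3K27ac (34.6 kb and 36.5 kb). The KO to WT ratios were 0.988 and 1.06, where the whole lists gave 0.960 and 1.02. H3K27me3 covered 22.6 kb in WT and 18.3 kb in KO, a ratio of 0.808 against 0.963 for the whole list, and the 3.27 kb at LEFTY1 made up most of that difference. H3K4me3 length was larger in KO at 3 genes (FGF2, SPRY2 and NODAL) and smaller at 7. H3K27ac length was larger in KO at 4 genes (FGF2, FGFR1, ETV4 and LEFTY2) and smaller at 5. H3K27me3 length was larger in KO at DUSP6 and smaller at 4 genes. The directions for H3K4me3, H3K27ac and H3K27me3 each turned when only the upper 50% of each list by score was kept, at ratios of 1.01, 0.858 and 1.19.

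Beyond 10 kb and up to 50 kb from the start sites, and more than 10 kb from all of them, 3 of 17 WT H3K4me3 peaks lacked a KO counterpart (12.3% in the whole list) and 0 of 14 KO peaks lacked a WT counterpart (7.3%). For H3K27ac the numbers were 6 of 20 in WT (24.6%) and 2 of 17 in KO (24.8%), and for H3K27me3 2 of 3 (21.6%) and 0 of 1 (11.0%). The whole lists of H3K4me3 and H3K27me3 thus also held more exclusive peaks in WT than in KO, and the counts here are small. When the lists of a mark were cut to equal numbers by score, the whole-list shares were nearly equal. They were 9.29% in WT and 9.07% in KO for H3K4me3, and 14.4% and 14.3% for H3K27me3. At FGF2 strong H3K27ac peaks 27.1 kb and 41.1 kb upstream (scores 794 and 1320) were shared, while weak peaks 19.5 kb and 27.8 kb downstream (47.5 and 48.1) were in WT alone. DUSP6 had a KO-only H3K27ac peak 30.6 kb upstream (score 99.4) and ETV5 another 12.0 kb upstream (59.4). At NODAL an H3K27ac peak 35.7 kb upstream, which overlapped a FLAG peak, was in WT alone. Closest inside the limit of 10 kb were the H3K4me3 peaks of ETV5 at 9.84 kb (KO) and 9.87 kb (WT). Closest outside it were H3K27ac peaks in KO of ETV5 and of LEFTY1, both at 10.3 kb.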

How the data were processed

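Peak lists from ChIP-seq of 7 libraries (3 histone marks in WT and KO cells, and FLAG in KO cells that express ZNF263-FLAG) were used. Each list holds chromosome, start, end, a peak name that begins with MACS, and a score, with no header. The score is the value the authors deposited with each peak. Scale, caller version, input and pooling were not given in the sources used here. Bowtie2, Picard and hg19 are named in the submitters' processing notes. Scores were ranked only within a list. Scores of WT and KO peaks given side by side are not on a known common scale, so a difference between them is not a measured change in signal.

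Peaks with any base within 10 kb of the hg19 start sites were taken, and peaks of the same mark that overlapped between genotypes by at least 1 bp were taken as shared. Pairs of peaks that overlapped each other and no further peak were used for width ratios. The lists hold no read counts, so depth is unknown. No test compared the genotypes, because each arm had 1 library. The overlap steps were tested on simulated data. All 10 genes are named by rule, and the members and lists were chosen with earlier results of these data known. The alternatives in the closing section were planned, except windows around WT H3K4me3 peaks with a score of at least 3100, which were added after seeing the data, as was the count of wide and high-scoring peaks. Other pathway genes, cell type markers and ZNF263 itself were not analysed here, because no hg19 annotation was used. Promoter sequences and gene order came from RefSeq tables of GRCh38.p14, and no coordinate was converted. Strands of FGFR1, ETV4, ETV5, LEFTY1 and LEFTY2 were taken from general knowledge. Python 3.11.15, numpy 2.4.6, pandas 2.3.3, scipy 1.17.1 and matplotlib 3.10.9 were used.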

Additional observations from a re-analysis of the deposited data

How the results depend on the processing

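The 31 results were recomputed under other settings, which gave 171 alternative values in all. Of these values, 130 stayed near the main one, 37 shifted and 4 turned direction. With the upper 50% of each list by score, which shortens the lists by construction, 6 genes had H3K27ac in WT and 5 in KO, 2 had H3K27me3 in WT and 3 in KO, and 2 were bivalent in WT and 3 in KO. Each of these orders between WT and KO is the reverse of that with all peaks in windows of 10 kb. With all peaks, WT and KO had equal H3K27ac counts in windows of 5, 20 and 50 kb. Bivalent counts were equal at 5 kb. In the upper 50% by score, exclusive peaks numbered 0 for WT H3K4me3, 2 for WT H3K27ac and 0 for KO H3K27ac. They numbered 0 for WT H3K27me3 and 1 for KO H3K27me3. Under that same setting covered-length ratios turned to 1.01 (H3K4me3), 0.858 (H3K27ac) and 1.19 (H3K27me3), and the cause was not tested. The H3K27ac ratio also turned in windows of 50 kb, to 0.930, so its direction is not fixed by these data. Exclusive peaks moved with the window, which takes in more peaks as it grows: at 5 kb they were 0 for WT H3K4me3 and 1 for KO H3K27ac, and at 20 kb 2, 3 and 2 for WT H3K4me3, H3K27ac and H3K27me3. At 50 kb they were 4, 7 and 3 in WT and 4 for KO H3K27ac, with 20 FLAG peaks. By midpoint WT H3K4me3 had 0.

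Exclusive shares of whole lists in the upper 50% were 6.36% (WT) and 1.06% (KO) with H3K4me3, then 20.6% and 20.8% (H3K27ac) and 16.6% and 4.80% (H3K27me3). Lists of equal length gave 9.29% and 9.07% for H3K4me3 and 14.4% and 14.3% for H3K27me3. A gap of up to 1 kb between shared peaks gave 11.6% and 6.98%, 23.5% and 23.7%, and 19.0% and 9.19% in the same order of marks. An overlap of 50% gave 22.4% and 11.7% for H3K27me3. With 1 library per arm and unknown depth, a peak near the lowest score of its list may be present or absent by depth alone.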
